A study of Mus musculus with 6 samples.

Results

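The odorant receptor genes of mouse chromosome 11 are 78 of the 1162 receptor genes in the authors' receptor table. They were taken by position and gene type alone: a receptor counted as a member when the deposited gene table placed it on chromosome 11 and its gene type did not contain the word pseudogene. Another 11 chromosome 11 entries of the receptor table are pseudogene models and were left out. The receptor table lists genes with a summed count of 10 or more over the 6 libraries, and 4 further chromosome 11 genes with receptor symbols, at summed counts of 3 or fewer, lay outside it.

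Bulk RNA of the dissected nasal conchae, labelled olfactory epithelium, was sequenced from 3 control and 3 sFlt1 mice, all labelled male, c57Bl6/ICR crossbred and 3 months old. The control mice carry the genotype label WT, no treatment and a normal olfactory bulb. The sFlt1 mice come from a cross of a Camk2a-tTA driver line with a tet-sFlt1 line, in which soluble Flt1, a decoy that binds the vascular growth factor VEGF, is made once tetracycline is absent. Tetracycline was replaced by water at embryonic day 13.5, and an MRI estimate at 2 months put the bulbs of sFlt1 replicates 1, 2 and 3 at 28%, 29% and 14% of normal size. The Camk2a promoter is best known from forebrain neurons, and the labels do not say in which cells of these mice the transgene was active. The same withdrawal day and MRI age are listed for the control mice, although their label gives no treatment. Whether the controls carried either transgene, or received tetracycline before that day, is not stated.

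Odorant receptors are G protein-coupled receptors in the cilia of olfactory sensory neurons, and each mature neuron expresses 1 allele of 1 receptor gene out of the whole repertoire. Receptor genes lie in clusters on most chromosomes, and the choice among them involves silencing by heterochromatin, enhancers that act across chromosomes and a feedback signal that stabilises the first receptor chosen. Axons of all neurons that chose the same receptor converge in the olfactory bulb, and which receptors are used also depends on the zone of the epithelium. In bulk tissue a receptor's count therefore follows the number of neurons that chose it, and fewer such neurons cannot be told apart from less receptor RNA in each neuron.

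The libraries held 28832424 to 46444862 counts, of which receptors took 208572, 179255 and 194906 counts in control replicates 1, 2 and 3 and 74429, 204799 and 75595 counts in sFlt1 replicates 1, 2 and 3. The 78 chromosome 11 receptors held 14888, 14191 and 12988 of these in the controls and 4332, 14795 and 5264 in the sFlt1 mice. Values per mouse are given below in this order of replicates. The sFlt1 replicate 2 thus had as many receptor counts as a control, and the other 2 sFlt1 mice had far fewer. Omp, the marker protein of mature olfactory sensory neurons, was at 3598, 4056 and 2836 CPM in control mice against 1317, 2366 and 465.8 CPM in the sFlt1 mice, where CPM is a count relative to each 1000000 of a TMM-scaled library size. Against the label male, Xist, which is transcribed from the inactive X of females, reached 709.9 CPM in control replicate 1 and 523.7 CPM in sFlt1 replicate 3, with 0.371 CPM or less in the other 4 libraries. Control replicate 3 held the brain interneuron gene Gad1 at 568.6 CPM against 27.4 CPM or less elsewhere.

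The 78 receptors fall into 5 clusters when runs separated by more than 1 Mb are split (GRCm39 positions from the deposited table). Cluster 1 runs from 48869716 to 49456686 and holds 19 receptors, 18 of them on the plus strand, from Olfr56 to Olfr1380. Cluster 2 holds 5 receptors between 50857357 and 50939877. Cluster 3 holds 22 receptors between 58344931 and 59484115, and cluster 4, the most populous, holds 29 between 73262072 and 74257044. Cluster 5 is a group of 3, Olfr462, Olfr463 and Olfr464, between 87775805 and 87811793. A family number in the MOR nomenclature was found for 76 receptors, which belong to 20 families. MOR256 has 18 members, spread over clusters 1 and 3, and MOR135 has 17 members, all in cluster 4. MOR255 has 6 members in cluster 4, and MOR275 and MOR285 have 5 and 4 members in cluster 3.

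The next lines show 60 bases of the coding sequence of 8 receptors to which the results return, and of 3 close relatives of Olfr320. The stretch lies at the end of the third transmembrane segment, one of the most conserved parts of odorant receptors, and was found in 73 of the 78 coding sequences. Capitals mark bases that differ from the base most common at that position among those 73, and each line reads 5′ to 3′ on the coding strand. The sequences are the longest reading frames of GENCODE M21 transcripts.
Olfr30: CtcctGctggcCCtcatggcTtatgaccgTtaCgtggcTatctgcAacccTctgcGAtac
Olfr376: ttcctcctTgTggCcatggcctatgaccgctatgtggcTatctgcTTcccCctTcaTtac
Olfr139: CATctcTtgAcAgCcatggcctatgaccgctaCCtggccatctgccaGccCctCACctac
Olfr411: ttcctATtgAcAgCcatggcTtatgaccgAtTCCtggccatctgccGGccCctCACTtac
Olfr412: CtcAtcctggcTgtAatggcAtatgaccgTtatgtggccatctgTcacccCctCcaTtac
Olfr323: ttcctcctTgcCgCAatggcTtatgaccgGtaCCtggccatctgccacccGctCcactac
Olfr385: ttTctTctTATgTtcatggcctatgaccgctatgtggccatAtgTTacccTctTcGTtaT
Olfr320: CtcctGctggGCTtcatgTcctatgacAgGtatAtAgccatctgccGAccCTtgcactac
Olfr316: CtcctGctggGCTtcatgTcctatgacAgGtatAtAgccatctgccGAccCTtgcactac
Olfr318: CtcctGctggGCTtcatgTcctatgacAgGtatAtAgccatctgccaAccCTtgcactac
Olfr319: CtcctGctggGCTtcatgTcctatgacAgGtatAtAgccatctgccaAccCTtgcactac
The 4 lines from Olfr320 to Olfr319 are the MOR285 family, in which Olfr320 and Olfr316 carry identical bases here, as do Olfr318 and Olfr319. Olfr411 differs from the common base at 17 of the 60 positions and Olfr376 at 9.

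Coding sequences of the 78 receptors were 921 to 1107 bases long, with a median of 942 bases. Identity between receptors of the same cluster had a median of 59.6% and reached 98.0%, for Olfr1381 and Olfr1380 in cluster 1. Identity between receptors of different clusters had a median of 56.3% and did not exceed 64.9%. Such near copies bear on the counts, because reads that match several receptors may be dropped or misplaced. Of the 78 receptors, 60 shared at least 1 stretch of 50 bases with another receptor gene, and 42 shared more than 10% of their 50-base stretches. Olfr30, Olfr139, Olfr323 and Olfr412 shared none. Olfr320 shared 29.9% of its stretches with its MOR285 relatives and is 96.2% identical to Olfr318, Olfr376 shared 27.9% and Olfr385 shared 15.2%. Overlap with another annotated gene was found for 7 of the 78 receptors, among them Olfr139 and Olfr399, which overlap each other on the same strand, and Olfr56, whose gene model overlaps Ifi47 and other interferon-induced genes.

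Receptors of the chromosome differed widely in level. Mean CPM over the 6 mice ran from 0.0915 for Olfr1375 to 15.3 for Olfr332, with a median of 2.47, and the 10 most counted receptors held 37.8% of all member counts. Per kilobase of the longest transcript, the highest levels were those of Olfr1395 in cluster 1, at 4.78 CPM per kilobase, and of Olfr332 and Olfr222 in cluster 3, at 4.48 and 4.35. Of the 78 receptors, 69 had at least 1 count in every library. The rank order of the receptors was alike among mice: Spearman's rho of the 78 shares was 0.87 to 0.92 between controls, 0.68 to 0.88 between sFlt1 mice and 0.72 to 0.91 across the groups, over receptors that share libraries and are not independent replicates.

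In the whole library, chromosome 11 receptors were lower in 2 of the 3 sFlt1 mice than in any control. Their summed level was 441.6, 505.5 and 290.4 CPM in control mice against 152, 322.9 and 121 CPM in the sFlt1 mice. The sFlt1 replicate 2 lay above the lowest control, so the groups overlapped. The ratio of means was 0.482 (exact permutation over 20 assignments, two-sided, p = 0.2, where the smallest possible p is 0.1). All receptors together stood at 5643 ± 1118 CPM in control mice against 2940 ± 1395 CPM (SD, n = 3 each), a ratio of 0.521 (exact permutation p = 0.2).

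The clusters were at unlike levels but at similar ratios. Cluster 3 was the only 1 of the 5 in which the mice did not overlap, with 110, 183 and 126 CPM in control mice against 45.0, 77.7 and 49.0 CPM in the sFlt1 mice, a ratio of 0.409 (exact permutation p = 0.1, 0.2 when adjusted over the 5 clusters). Cluster 1 was at 184, 169.9 and 89.6 CPM against 63.1, 133.7 and 37.8 CPM, a ratio of 0.529. Cluster 4 was at 121.8, 126.7 and 63.0 CPM against 35.8, 100.9 and 26.9 CPM, a ratio of 0.525. In both clusters sFlt1 replicate 2 lay within the control range and the other 2 sFlt1 mice below it. The small clusters 2 and 5 had ratios of 0.468 and 0.393, with 1 sFlt1 mouse of each inside the control range. For clusters 1, 2, 4 and 5 the exact permutation p was 0.2.

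**Figure D1:**
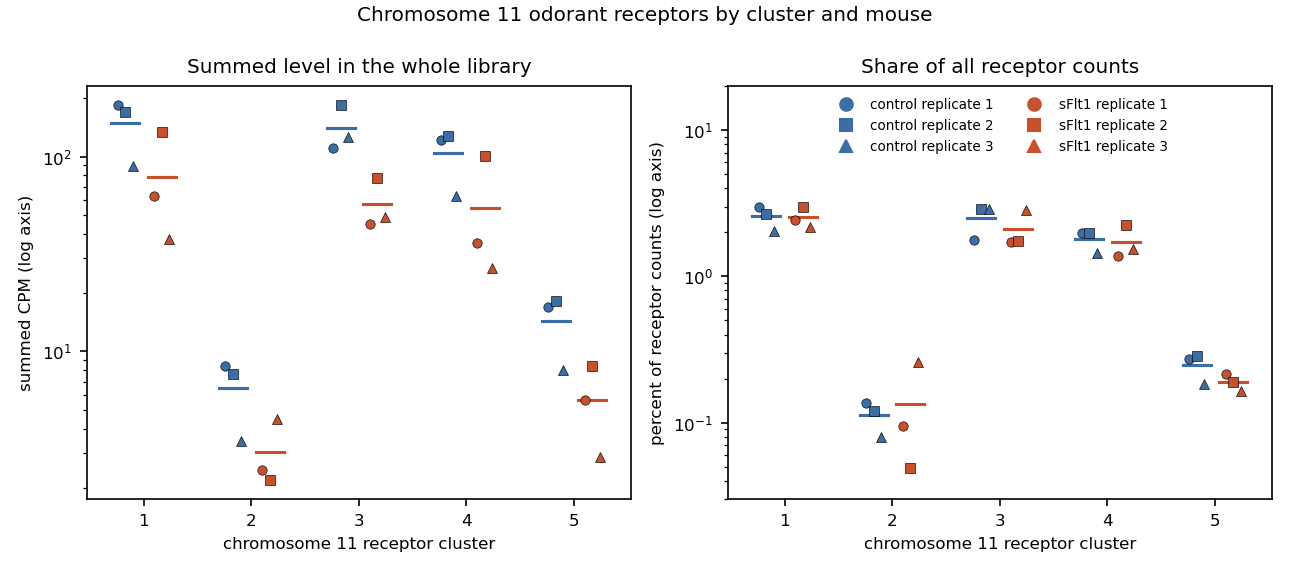
Summed level of each chromosome 11 cluster in CPM (left) and its share of all receptor counts in percent (right), both on log axes, with 1 point per mouse and a line at the mean of 3 mice. On the left the sFlt1 means lie below the control means in every cluster, while on the right the groups overlap in every cluster.

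As a share of all receptor counts, the chromosome overlapped between the groups. It held 7.14%, 7.92% and 6.66% of receptor counts in controls and 5.82%, 7.22% and 6.96% in sFlt1 mice, means of 7.24% ± 0.633 and 6.67% ± 0.747 (SD, n = 3 each; exact permutation p = 0.5). The log2 ratio of the means was -0.12, which ranks 8 from the lowest among the 18 chromosomes that carry receptors in the table. Without both libraries that had Xist reads it was -0.16. Cluster 1 held 2.98%, 2.66% and 2.06% against 2.41%, 2.99% and 2.17%, and cluster 4 held 1.97%, 1.98% and 1.45% against 1.37%, 2.26% and 1.55%. Cluster 3 held 1.78%, 2.87% and 2.90% against 1.72%, 1.74% and 2.82%, so that 2 sFlt1 mice lay just under the lowest control and the third did not. The share of cluster 5 was 0.274%, 0.285% and 0.184% against 0.216%, 0.188% and 0.165%. In cluster 2 sFlt1 replicate 3 stood apart, at 0.259%, with the other sFlt1 mice at 0.0940% and 0.0488% and the controls at 0.136%, 0.120% and 0.0800%. Over the 5 clusters the exact permutation p for the share was 0.2 to 1, and 0.75 to 1 after Benjamini-Hochberg adjustment.

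The high share of cluster 2 in sFlt1 replicate 3 came from its most counted member. Olfr54, of the MOR126 family, took 6.62, 4.57 and 4.05 of every 10000 receptor counts in controls and 5.51, 1.42 and 18.4 in sFlt1 mice. Its raw count in that mouse was 139, against 138, 82 and 79 in the controls, whose receptor depth was greater. Without Olfr54 the log2 ratio of the cluster's share was -0.30 instead of 0.26. Olfr51, the next most counted receptor of cluster 2, took 2.30, 2.85 and 1.39 per 10000 against 2.96, 1.56 and 2.25, so its groups overlapped.

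The family sums spread in different ways. MOR285 (Olfr320, Olfr319, Olfr318 and Olfr316) had nearly the same share in each control, 21.4, 21.9 and 22.8 per 10000 receptor counts, and 10.5, 20.3 and 12.2 in the sFlt1 mice. Every sFlt1 mouse was below every control, at a log2 ratio of -0.62 (exact permutation p = 0.1, the smallest possible, and 0.8 when adjusted over the 8 families with 3 or more members). MOR275, also of cluster 3, varied among mice of the same group, with 49.9, 92.2 and 133.8 per 10000 in controls and 59.5, 42.9 and 165.5 in sFlt1 mice. MOR256 was at 264.6, 225.6 and 175.3 against 188.2, 254.9 and 214.6, and MOR135 at 114.2, 134.1 and 76.7 against 68.1, 143.3 and 69.6, both with overlapping groups. Zone genes, chosen after the cluster values were seen, also varied among sFlt1 mice. Nqo1, an enzyme of the dorsal zone, was at 93.8, 176.4 and 112 CPM in control mice against 64.2, 59.4 and 134.7 CPM in the sFlt1 mice, the last being the mouse with the high cluster 2 and MOR275 shares. Ncam2, an adhesion molecule outside the dorsal zone, was at 110.2, 105.2 and 106.7 CPM against 56.2, 109.5 and 45.4 CPM. The part of zone composition in these shares was not tested.

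Receptor by receptor, the all-gene fit with edgeR's quasi-likelihood test could test 71 of the 78 receptors. The other 7, Olfr1375, Olfr323, Olfr223, Olfr382, Olfr385, Olfr395 and Olfr401, had too few counts for its filter. Of the 71, 65 had a lower and 6 a higher estimate in sFlt1 mice. Their median log2 fold change was -1.11. Leaving out the 2 libraries with Xist reads gave -0.88. All 1028 tested receptors had a median of -1.09, with 89.1% lower and 10.9% higher, and all 19899 tested genes a median of 0.02, with 48.7% lower. None of the 71 passed an adjusted p of 0.05, nor did any other gene (0.00% called), and the smallest adjusted p among the 71 was 0.43. At an unadjusted p under 0.05, 23 of the 71 were lower, against 6.24% of all genes and 27.1% of all receptors, and 0 were higher, against 4.84% and 0.584%. In 23 of the 71 every sFlt1 mouse was below every control in CPM, against 9.51% of all genes and 30.6% of all receptors. In 1 of the 71, Olfr320, every sFlt1 mouse was above, against 8.76% and 0.973%. By cluster these 23 were 3 of 19 in cluster 1, 1 of 4 in cluster 2, 9 of 20 in cluster 3, 9 of 25 in cluster 4 and 1 of 3 in cluster 5. The 1 of cluster 2, Olfr1378, is also among the 23 at an unadjusted p under 0.05. It met the filter through the controls alone, since no sFlt1 library reached the cut. Olfr1378 could be tested only because it was high in controls, so it supports no difference between the groups. The counts of lower receptors are near those of receptors at large.

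**Figure D2:**
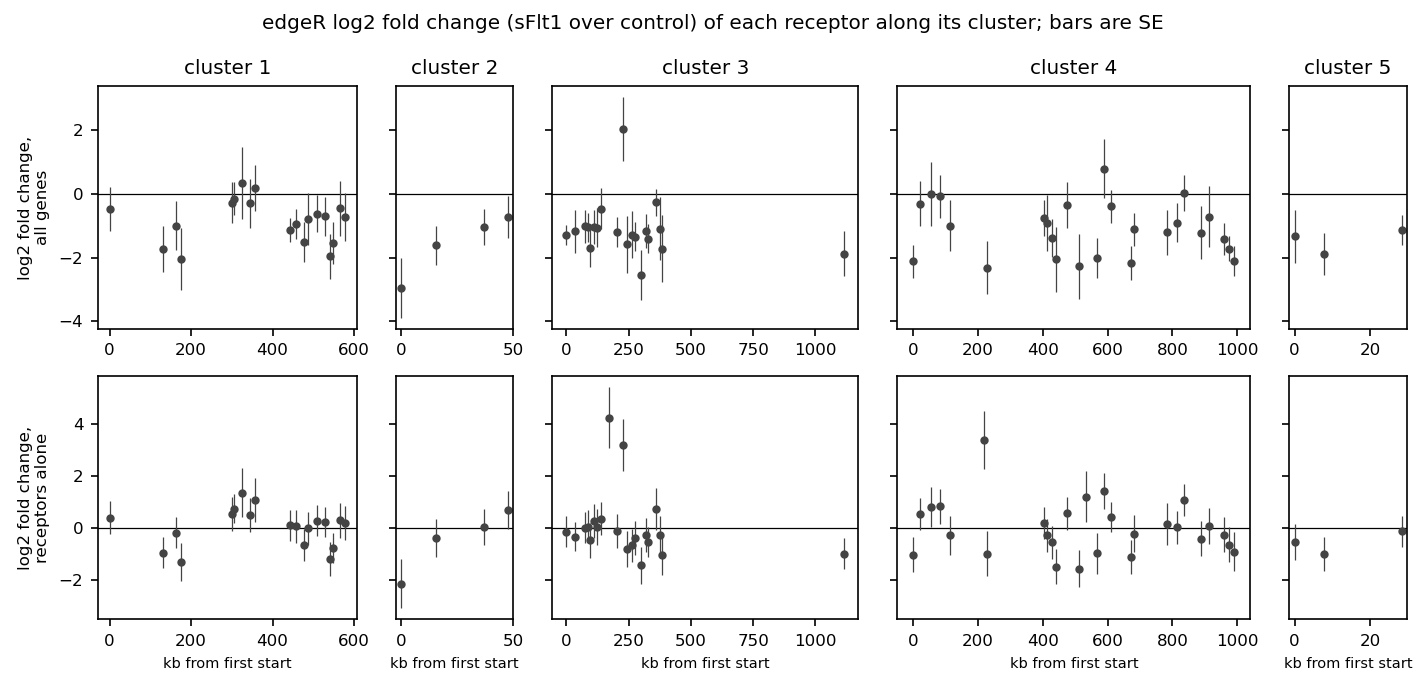
Log2 fold change of each receptor (sFlt1 over control, edgeR) against the distance of its start from the first start of its cluster in kilobases, with bars of 1 SE. The upper row shows the 71 receptors tested among all genes, of which 65 lie below 0, and the lower row the 74 tested among receptors alone, of which 39 lie below 0.

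DESeq2, run as an alternative on the same counts, called 5 of 68 receptors lower in sFlt1 mice at an adjusted p under 0.05, where it called 1.71% of all genes and 9.42% of all receptors. They were Olfr30 in cluster 3 and Olfr376, Olfr139, Olfr411 and Olfr412 in cluster 4, all of which missed the threshold by edgeR with an adjusted p of 0.43. The same 5 carry an adjusted p under 0.05 in the authors' deposited table, which calls 1.11% of its genes lower. In each of the 5, all sFlt1 mice, replicate 2 included, lay below all controls in CPM.

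Olfr30 (ENSMUSG00000043314, chromosome 11, 58344931 to 58353096, minus strand) stood at 8.42, 12.2 and 8.52 CPM in control mice against 4.18, 3.60 and 4.14 CPM in the sFlt1 mice. The groups were well separated, and the log2 fold change was -1.29 (SE 0.32, DESeq2 adjusted p = 0.0033). Here and for the next 4 receptors the log2 fold change and SE are edgeR's, and only the adjusted p is that of DESeq2. Olfr411 (ENSMUSG00000054406, 74235955 to 74243476) stood at 3.65, 4.49 and 5.92 CPM against 1.19, 1.37 and 1.68 CPM, a log2 fold change of -1.72 (SE 0.40, DESeq2 adjusted p = 0.0014). Olfr139 (ENSMUSG00000047444, 73934859 to 73947377) stood at 3.59, 6.52 and 2.84 CPM against 0.597, 1.33 and 0.919 CPM, a log2 fold change of -2.17 (SE 0.53, DESeq2 adjusted p = 0.0061). It overlaps Olfr399 on the same strand, whose estimate was -1.11. Olfr376 (ENSMUSG00000063881, 73262072 to 73268662) stood at 2.79, 4.13 and 1.72 CPM against 0.877, 0.655 and 0.460 CPM, a log2 fold change of -2.12 (SE 0.52, DESeq2 adjusted p = 0.010). Olfr412 (ENSMUSG00000058275, 74252895 to 74257044), at the far end of cluster 4, stood at 1.33, 1.57 and 1.07 CPM against 0.211, 0.262 and 0.437 CPM, a log2 fold change of -2.10 (SE 0.48, DESeq2 adjusted p = 0.024).

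Relative to other receptors the estimates of these 5 were smaller. Olfr30 took 13.6, 19.1 and 19.5 per 10000 receptor counts in controls and 16, 8.06 and 23.8 in sFlt1 mice, so that the groups overlapped and the log2 fold change among receptors was -0.13 (SE 0.60). Olfr411 and Olfr412 also overlapped, at -0.63 (SE 0.66) and -0.90 (SE 0.75). Olfr376 and Olfr139 remained lower in every sFlt1 mouse. Olfr376 took 4.51, 6.47 and 3.95 per 10000 against 3.36, 1.46 and 2.65, and Olfr139 took 5.80, 10.2 and 6.52 against 2.28, 2.98 and 5.29. Their log2 fold changes among receptors were -1.02 (SE 0.67) and -1.10 (SE 0.66), neither of which passed by either tool.

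**Figure D3:**
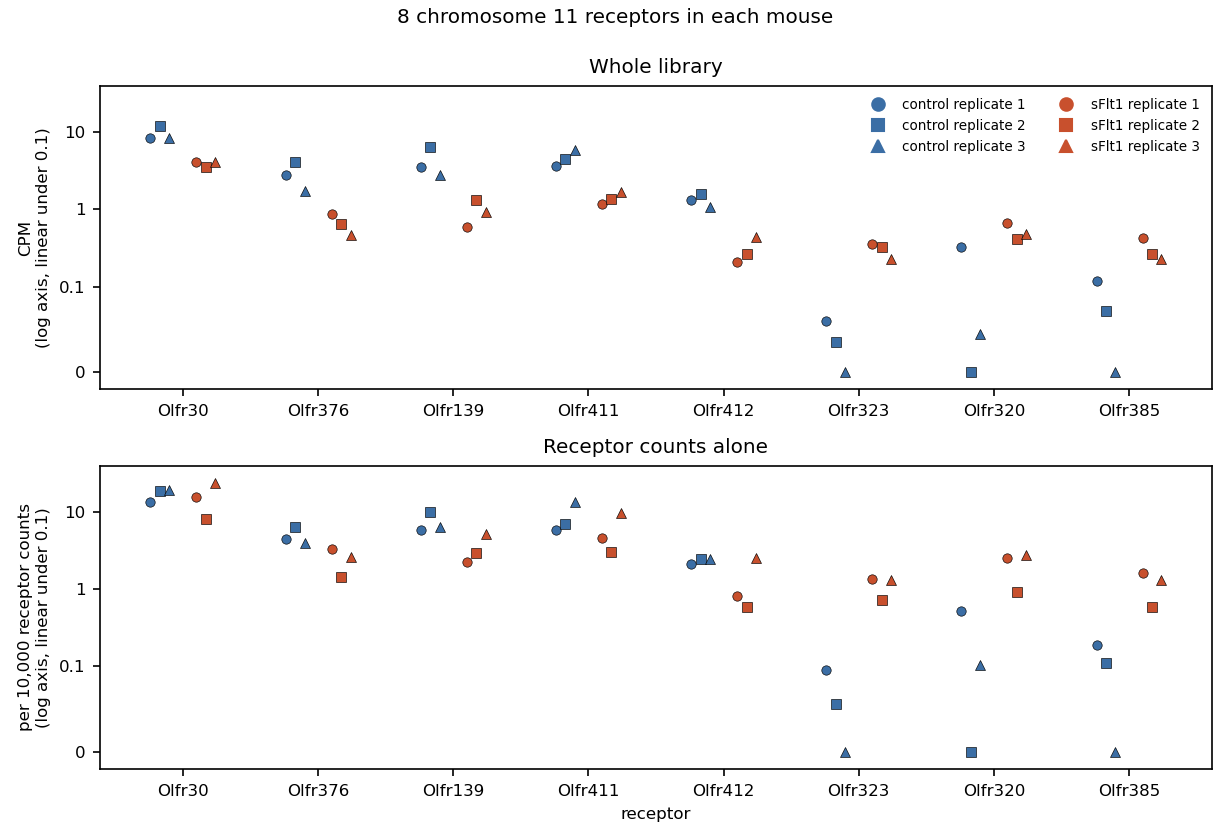
Level in CPM (top) and share per 10000 receptor counts (bottom) of 8 receptors in each mouse, on axes that are logarithmic above 0.1 and linear below. The 5 receptors on the left are lower in every sFlt1 mouse in the top panel, and the 3 on the right, Olfr323, Olfr320 and Olfr385, are higher in every sFlt1 mouse in both panels.

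The fit on receptors alone, with library size set to the summed receptor counts, asked which receptors changed relative to the repertoire. It tested 74 of the 78, leaving out Olfr1375, Olfr223, Olfr382 and Olfr401. Of the 74, 39 had lower and 35 higher estimates, where 55.8% and 44.2% of the 1059 receptors tested had. The median log2 fold change was -0.11 for the members and -0.12 for all receptors. With TMM factors computed among receptors the members' median was 0.12, so signs of small estimates in this fit depend on the scaling. None passed by edgeR (0.00% called in either direction). At an unadjusted p under 0.05, 3 were lower and 3 higher, where 6.61% and 5.57% of receptors were. The 3 higher, Olfr323, Olfr320 and Olfr385, met the filter on low counts through the sFlt1 libraries alone, since no control reached its cut of 0.535 per 10000 receptor counts. They could be tested only because they were high in sFlt1 mice, so neither their number nor their calls support a difference between the groups. With a filter of a summed count of 1 or more, which does not depend on the group, their adjusted p by edgeR was 0.11, 0.15 and 0.19. Every sFlt1 mouse was below every control in the share of 8 of the 74, where 10.3% of receptors were, and above in 7 of the 74, where 6.99% were. The 7 include Olfr323, Olfr320 and Olfr385, which were tested only because they were high in sFlt1 mice, so the count of 7 supports no difference. Both counts are near those of receptors at large.

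DESeq2 called 2 of the 74 higher among receptors, where it called 1.61% of receptors higher, and none lower (0.758%). The 2 were Olfr323 and Olfr320, which are among the 3 that the filter let in through sFlt1 mice alone. Both had few counts in controls, and both lie in cluster 3. Olfr323 (ENSMUSG00000043880, 58514985 to 58521327, minus strand), the 1 member of the MOR107 family here, had 2, 1 and 0 counts in controls and 10, 15 and 10 in sFlt1 mice. These are 0.0959, 0.0558 and 0 per 10000 receptor counts against 1.34, 0.732 and 1.32. A share of 3 counts is the floor, which is 0.154 per 10000 in the control without a count. The log2 fold change was 4.24 (SE 1.17, adjusted p = 0.12 by edgeR and 0.029 by DESeq2). Pooled over mice, 3 of 582733 against 35 of 354823 receptor counts give a ratio of 19.2. Its exact 95% interval of 6.04 to 97.4 covers counting error only. Since Olfr323 was tested only through its sFlt1 values, the interval supports no difference. In CPM the receptor was also higher in every sFlt1 mouse, at 0.351, 0.327 and 0.230 against 0.0593, 0.0356 and 0. As given above, its coding sequence shares no 50-base stretch with another receptor gene.

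Olfr320 (ENSMUSG00000107711, 58571925 to 58577059, plus strand), of the MOR285 family, had 11, 0 and 2 counts in controls and 19, 19 and 21 in sFlt1 mice. Its share was 0.527, 0 and 0.103 per 10000 receptor counts against 2.55, 0.928 and 2.78, a log2 fold change of 3.21 (SE 1.0, adjusted p = 0.15 by edgeR and 0.048 by DESeq2). Control replicate 1 held 11 of the 13 control counts, and the estimate was 5.07 without it and 2.66 without control replicate 2. Pooled over mice the ratio was 7.45, with an exact 95% interval of 4.04 to 14.8 that covers counting error only. Olfr320, too, was tested only through its sFlt1 values, so the interval supports no difference. Its 3 relatives, which are 91.3% to 96.2% identical to it, had lower estimates in sFlt1 mice. Olfr316 took 3.31, 9.04 and 2.57 per 10000 against 0.806, 1.71 and 3.04, a log2 fold change among receptors of -1.42 (SE 0.72). Olfr318 and Olfr319 had estimates of -0.65 (SE 0.65) and -0.79 (SE 0.71). None of the 3 passed, and the authors' handling of reads shared within a family, not given in the sources used here, could move counts between them.

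Olfr385 (ENSMUSG00000095095, 73479128 to 73483834), of the MOR135 family in cluster 4, was likewise higher in every sFlt1 mouse. It had 4, 2 and 0 counts in controls and 12, 12 and 10 in sFlt1 mice. The log2 fold change among receptors was 3.39 (SE 1.10, adjusted p = 0.17 by edgeR and 0.057 by DESeq2), so it passed by neither tool, and like the other 2 it was tested only through its sFlt1 values. Pooled over mice the ratio was 9.31. Its exact 95% interval of 3.86 to 27.1 covers counting error only and for the same reason supports no difference. In all 3 of these receptors the raw counts were alike in the sFlt1 mice, although sFlt1 replicate 2 had far more receptor counts than the others. In the authors' deposited receptor scores, which are counts scaled by 1 factor per mouse, Olfr323 and Olfr320 carry adjusted p-values of 0.025 and 0.028 and Olfr385 one of 0.060, with 2.69% of receptors called higher there.

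None of the other receptors that were higher by share in every sFlt1 mouse passed by either tool. Olfr43, of the MOR125 family, took 11.4, 8.37 and 4.57 per 10000 receptor counts in controls and 13.6, 16.7 and 21.6 in sFlt1 mice, or a log2 fold change of 1.09 (SE 0.63). In CPM it was nearly level, at 7.06, 5.34 and 1.99 against 3.54, 7.44 and 3.75. The MOR256 receptors Olfr10 and Olfr1390, both in cluster 1, had estimates of 1.38 (SE 0.94) and 1.09 (SE 0.84). Each had 33 counts or fewer in every library. Olfr313, of the MOR222 family in cluster 3, was at 0.74 (SE 0.79). Olfr43, Olfr10 and Olfr313 shared 73.7%, 39.7% and 32.5% of their 50-base stretches with other receptor genes, and Olfr1390 shared none. Olfr397 of cluster 4, whose groups overlapped, had an estimate of 1.43 (SE 0.70) among receptors. It took 4.43, 11.9 and 1.98 per 10000 in sFlt1 mice against 2.73, 2.23 and 1.90 in controls. With 1 mouse left out, the estimate among receptors stayed positive, at 0.49 to 1.84. In the all-gene fit its estimate turned from 0.79 to -0.82 without sFlt1 replicate 2.

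At the other end, Olfr316 and 4 more receptors had the smallest p among those with a lower estimate by share, and none passed. Olfr1378, the first receptor of cluster 2, had 43, 23 and 23 counts in controls and 0, 11 and 3 in sFlt1 mice, the lowest estimate of the 74 at -2.12 (SE 0.94). Its pooled share was 0.258 of the control share, with an exact 95% interval of 0.136 to 0.457 that covers counting error only. Olfr394 and Olfr392, MOR135 receptors that are 83.0% identical, were at -1.54 (SE 0.71) and -1.47 (SE 0.69). Olfr392 took 18.5, 23.9 and 15.3 per 10000 in controls and 3.22, 15 and 2.25 in sFlt1 mice, so sFlt1 replicate 2 lay just below the lowest control and the others far below. With 1 mouse left out, the edgeR estimate of Olfr392 among receptors ranged from -2.81 to -1.05. The lowest was that without sFlt1 replicate 2 (SE 0.77, adjusted p = 0.035 by edgeR). The share of all receptors that passed in that fit is not given here, so this call has no background. Olfr394 took 13.3, 28.4 and 7.95 against 5.24, 10 and 1.59, with overlapping groups. Olfr1383, a MOR256 receptor of cluster 1, took 12.6, 7.92 and 8.52 against 3.90, 6.10 and 2.78, an estimate of -1.17 (SE 0.64).

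Of the 2 most abundant receptors in each cluster, Olfr222 and Olfr463 were lower by share in every sFlt1 mouse, and the groups of the others overlapped. Olfr332, the most abundant member, took 30.8, 52.6 and 25.4 per 10000 receptor counts in controls and 18.4, 42.5 and 25.9 in sFlt1 mice, or a log2 fold change among receptors of -0.32 (SE 0.56). Olfr222, also of cluster 3, took 21.4, 46.5 and 18.0 against 17.7, 17 and 9.13, lower in every sFlt1 mouse, at -0.97 (SE 0.60). In cluster 1, Olfr1395 was uneven within both groups, with 22.2, 44.8 and 33.7 against 50.5, 31.2 and 8.33 per 10000. Olfr1384 took 29.4, 34.6 and 20.6 against 15.5, 42.6 and 42.2. The cluster 4 receptors Olfr398 and Olfr390 took 20.2, 11.7 and 23.4 against 26.5, 29.0 and 18.8 and 23.0, 18.6 and 16.2 against 7.39, 31.7 and 8.33. Olfr463 of cluster 5 was lower in every sFlt1 mouse, with 7.86, 7.48 and 5.49 against 5.11, 3.52 and 1.85 (log2 fold change -0.99, SE 0.66), while its neighbour Olfr464 overlapped, at -0.11 (SE 0.60).

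**Figure D4:**
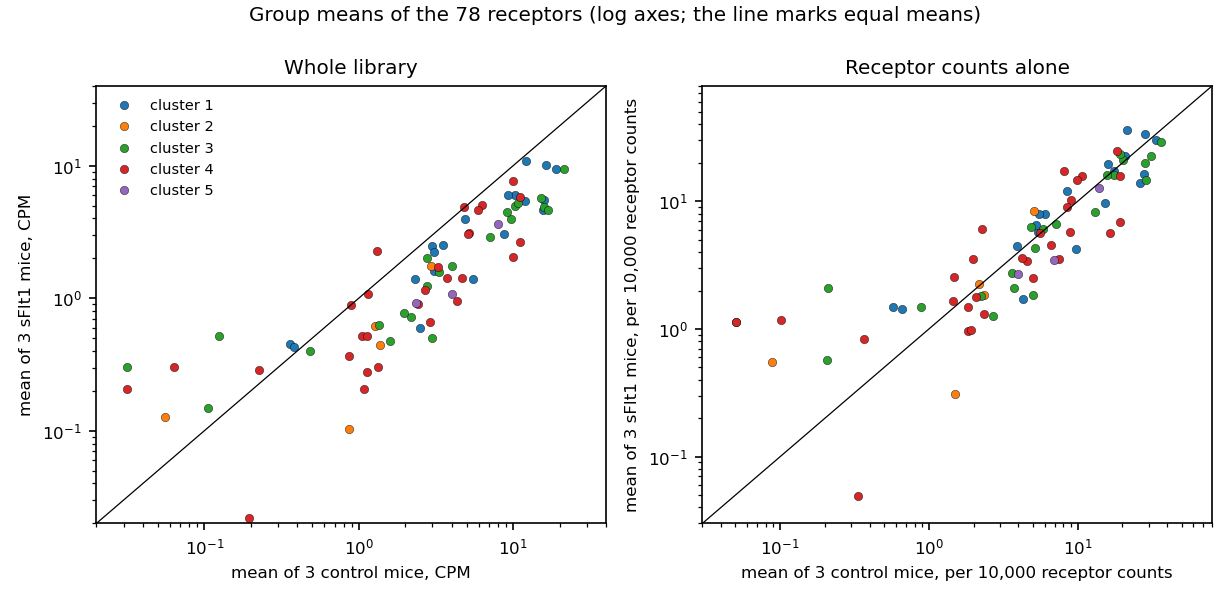
Mean of 3 sFlt1 mice against mean of 3 control mice for each of the 78 receptors, in CPM (left) and per 10000 receptor counts (right), on log axes with a line at equal means and colours for the 5 clusters. On the left most points lie below the line, and on the right they scatter around it, with a few receptors of very low control means above it.

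The 4 receptors that the fit on receptors alone could not test had few counts. Olfr401, of the MOR255 family, had 2, 1 and 0 counts in controls and 0, 2 and 25 in sFlt1 mice, so 1 mouse held nearly all of them. Olfr382 had 6, 9 and 4 counts against 0, 3 and 0. Olfr1375 had 2, 3 and 0 counts against 0, 7 and 10, and Olfr223 had 3, 2 and 7 against 0, 11 and 9, both with overlapping groups.

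The number of chromosome 11 receptors seen did not separate the groups. When each library was thinned to 74429 receptor counts, 76.2, 74.8 and 71.8 receptors were expected with at least 1 count in controls and 73, 77.2 and 77.0 in sFlt1 mice (exact permutation p = 0.5). Shares were more uneven among sFlt1 mice: over the 69 receptors with a count in every library, the median SD of the log2 share was 0.54 between controls and 0.68 between sFlt1 mice. Over all 1039 such receptors these medians were 0.58 and 0.81, and 2 of the sFlt1 libraries had fewer receptor counts than any control.

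Markers of the cells in these libraries were compared in the same fit. The 14 tested markers of mature olfactory sensory neurons were all lower by estimate, at a median log2 fold change of -1.14, close to the -1.11 of the chromosome 11 receptors. Of 10 immature neuron markers 7 were higher, at a median of 0.91, and of 9 markers of globose basal cells and precursors all were higher, at 1.22. Genes of receptor choice and receptor trafficking were divided, with 13 of 22 lower and a median of -0.17. Among the lower genes of this list, Ric8b, Adcy3, Rtp1 and Rtp2 are also in the mature neuron list. Ric8b, an exchange factor for the olfactory G protein that also helps receptor expression, had the smallest p, at 835.6, 1127 and 672.2 CPM against 292.4, 529.5 and 223.9 CPM (log2 fold change -1.33, SE 0.38, adjusted p = 0.43 by edgeR and 0.045 by DESeq2). Lhx2, a homeodomain factor required for receptor enhancers, was at -0.09 (SE 0.27). Of 6 sustentacular cell markers 4 were higher, at a median of 0.15, and all 8 brain neuron markers were lower, at -2.78, with the highest summed level, 2153 CPM, in control replicate 3. No gene of these lists passed by edgeR. Besides Ric8b, DESeq2 called 1 immature neuron marker (Dpysl3) and 3 precursor markers (Insm1, Sox11 and Neurog1) higher and 3 brain neuron markers (Eomes, Th and Snap25) lower. Of all genes it called 1.71% lower. Its share of all genes called higher is not given here, so the higher marker calls have no background. The part of cell composition in the receptor values was not tested.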

How the data were processed

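The authors deposited unnormalized read counts for each Ensembl gene, and per the file headers the same table gives their DESeq2 log2 fold changes with adjusted p-values. Receptor counts are repeated in another deposited table (0 differed), and a further one holds receptor scores, which the authors made from counts with 1 scaling factor for each mouse. The submitters' processing notes name cutadapt 3.5, TopHat2 2.2.1, HTSeq 2.0.1, DESeq2 1.26.0 and GRCm39. Strand and counting settings, not given in the sources used here, may split or lose reads of overlapping or near-identical genes. Of 55414 entries, 6250 carried no values, and 42 per-sample columns were not used.

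Tests used the quasi-likelihood F-test of edgeR 4.0.16 in R 4.3.3 (TMM, filterByExpr on group, no covariate, Benjamini-Hochberg over all genes, threshold 0.05), and again on receptors alone with summed receptor counts as library size. DESeq2 1.42.0 was an alternative. Each SE was obtained from an estimate and its F statistic. Single values per mouse were compared by two-sided exact permutation over 20 assignments. The code was tested on simulated data. Identities come from pairwise alignment of GENCODE M21 (GRCm38) reading frames, and MOR names from a RefSeq table of GRCm38.p6. Shares carry counting error as well, and counts of reads without molecular identifiers are not independent molecules.

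Named receptors are the 2 of highest mean CPM per cluster, the 5 higher and 5 lower of smallest p in each fit, and those that passed; relatives and untested members named beside them were chosen after their values were seen. The members and gene lists were chosen with earlier results of these data known.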

Additional observations from a re-analysis of the deposited data

How the results depend on the processing

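The median log2 fold change of chromosome 11 receptors among all genes was -1.56 to -0.86 when 1 mouse was left out, and that among receptors -0.24 to 0.02. Calls among all genes were 0 in each edgeR alternative, 5 by DESeq2 and 4 by DESeq2 without members that overlap another gene. Calls among receptors were 2 by DESeq2 and 0 to 1 by edgeR with 1 mouse left out, the latter without a background. The labels do not say that equal replicate numbers pair the mice. Over all genes, deviations from the group means correlated at r = 0.026, 0.246 and 0.357 between same-numbered mice. Differently numbered mice gave r from -0.417 to 0.289. So few overlapping values cannot settle whether the mice were paired. With the replicate block edgeR made 0 calls in either fit, the median log2 fold change among all genes being -1.25. DESeq2 with the block, an alternative chosen after seeing the data, called 20 members among all genes and 3 among receptors. The 20 were all lower in sFlt1 mice, and of the 3, Olfr323 and Olfr320 were higher and Olfr392 lower. The shares of all genes and of all receptors called with this block are not given here, so these counts have no background. With 1 mouse left out the log2 ratio of the share was -0.16 to 0.10 for cluster 1, -0.65 to 0.66 for cluster 2 and -0.30 to 0.080 for cluster 4. Without both libraries with Xist reads it turned to 0.20, -0.49 and 0.081, and Olfr398 (all genes) to 0.18 and Olfr1395, Olfr54 and Olfr390 (receptors alone) to 0.055, -0.36 and 0.18. Cluster 2 was at a log2 ratio of -1.10 in CPM, and its share was at -0.30 without its most counted member. With TMM factors among receptors Olfr1395, Olfr464 and Olfr30 turned to 0.0029, 0.12 and 0.094. With 1 mouse left out, all-gene estimates ranged from -0.82 to 1.30 (Olfr397), -0.26 to 1.27 (Olfr10), -0.15 to 1.12 (Olfr1390) and -0.39 to 0.43 (Olfr43), and estimates among receptors from -0.76 to 0.28 (Olfr1395), -0.60 to 1.23 (Olfr54), -0.20 to 0.28 (Olfr51), -0.71 to 0.046 (Olfr332), -1.29 to 0.063 (Olfr390), -0.27 to 0.010 (Olfr464) and -0.54 to 0.19 (Olfr30). The cause was not tested. Depth limits the receptors under 100 summed counts, 11 of the 78.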
